A study of Mus musculus with 9 samples.

Results

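Transcript levels of 35 genes of glycolysis, the pentose phosphate pathway and the hypoxia-inducible factor (HIF) system were compared in mouse bone marrow-derived macrophages, with and without lipopolysaccharide (LPS) and with and without serum response factor (SRF). The 35 genes were given as a list of symbols for enzymes, transporters and regulators of these pathways. The list has no threshold on measured values, but it was drawn up with earlier results of these data known. All 35 were found among the 22524 genes counted, and all 35 passed the filter on low counts. They are grouped below by role, as glucose entry and hexokinases, upper glycolysis, lower glycolysis, lactate and pyruvate handling, HIF regulators and targets, and the oxidative and non-oxidative branches of the pentose phosphate pathway.

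RNA was sequenced from 9 libraries in 3 groups of 3. The first group was untreated control macrophages, the second was control macrophages given LPS for 6 h, and the third was SRF-KO macrophages given LPS for 6 h. All were primary macrophages grown for 7 days from bone marrow of C57BL/6 mice, and the controls are labelled wild type. The labels name the knockout only as SRF-KO, without the driver of the deletion, the age or the sex of the animals, and untreated SRF-KO macrophages were not analysed here. The effect of SRF loss was therefore compared only under LPS. LPS, from the envelope of Gram-negative bacteria, is sensed by the receptor TLR4 on macrophages. SRF is a transcription factor best known for driving cytoskeletal and immediate-early genes.

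Glycolysis splits glucose into pyruvate in the cytosol and yields ATP and NADH. When pyruvate is reduced to lactate and exported, NAD+ is regenerated and glycolysis can run fast without the mitochondria. The pentose phosphate pathway branches off at glucose 6-phosphate: its oxidative branch makes NADPH and its non-oxidative branch interconverts sugar phosphates. HIF-1 is a pair of proteins, an alpha subunit encoded by Hif1a and a constant partner encoded by Arnt. Prolyl hydroxylases encoded by the Egln genes mark the alpha subunit for destruction when oxygen is present. HIF-1 activates many glycolytic genes, and macrophages given LPS are known for a shift towards glycolysis. HIF-1 activity is set largely at the level of the protein, which was not measured here.

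Levels below are in CPM (a gene's counts divided by the library's scaled total), scaled with trimmed mean of M-values (TMM) factors, and are compared within a gene only unless stated. Total counts ranged from 15321839 to 24912173 per library. Srf, the check of the knockout, stood at 44.3 ± 4.54 CPM (SD, n = 3) in untreated controls, 57.6 ± 2.17 CPM (SD, n = 3) in LPS-treated controls and 1.05 ± 0.438 CPM (SD, n = 3) in the SRF-KO libraries. The 8 macrophage markers summed to 16729 to 17294 CPM in untreated controls, 20707 to 21199 CPM in LPS-treated controls and 19250.0 to 19472 CPM in SRF-KO. Lyz2 carries most of that sum, at means of 8259, 8925 and 12296 CPM, and the single markers did not move together. Of the 8, 6 were lower and 2 (Lyz2 and Csf1r) higher in SRF-KO than in control with LPS, with either scaling. Fcgr1 went from a mean of 1853 to 84.2 CPM (22.0-fold lower), Mertk from 22.0 to 4.38 CPM (5.03-fold), Cd68 from 1409.9 to 553 CPM (2.55-fold), Spi1 from 958 to 385 CPM (2.49-fold) and Adgre1 from 3689 to 1701 CPM (2.17-fold). The B cell, T and NK cell, erythroid and dendritic markers each summed to at most 0.967 CPM in any library, and none of them passed the filter. Of the neutrophil list, 3 of 7 markers passed, its sum ran from 1.87 to 2.32, from 6.27 to 7.26 and from 18.7 to 19.96 CPM in the same order of groups, and Elane was at 0. With LPS, most of that sum was S100a8, at means of 0.644, 5.11 and 16.1 CPM. Camp was at 0, 1.08 and 2.60 CPM. S100a9 (0.883, 0.566 and 0.434 CPM) and Ltf (0.486, 0.0431 and 0.149 CPM) were instead highest in untreated controls. Ly6g and Mpo were at 0 with LPS in control and SRF-KO. Of the stromal list, 1 of 5 passed, with sums of 0.107 to 0.287, 13.5 to 17.8 and 26.4 to 28.5 CPM, and Col1a1 and Col3a1 were at 0. The marker that passed, Pdgfrb, made up nearly all of the sum with LPS, at means of 0.132, 14.8 and 27.4 CPM. The 3 endothelial markers summed to 17.9 to 21.1, 62.4 to 70.2 and 9.15 to 11.1 CPM. The part of these markers in the results was not tested. In bulk RNA, fewer cells of a type and less RNA per cell cannot be told apart. The 4 Y-linked genes Ddx3y, Uty, Kdm5d and Eif2s3y together had 1700 to 2749 counts in each control library and 1 to 3 in each SRF-KO library, so sex and SRF genotype cannot be told apart. Of the 35 genes, 3 lie on the X chromosome (Pgk1, Pdk3 and G6pdx). Whether replicates are separate animals or cultures is not stated, so the p-values reflect the spread among these libraries alone, which may be technical.

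LPS treatment of control macrophages raised most of these genes. With edgeR's quasi-likelihood test and Benjamini-Hochberg adjustment over the 11560 genes tested, 28 of the 35 rose and 7 fell at an adjusted p below 0.05. Among all tested genes, 81.7% were called, 40.8% higher and 40.8% lower. The 2 groups were separate for all 35 genes, 28 higher and 7 lower, against 82.1% of all genes (40.7% higher and 41.4% lower). At least a 2-fold rise was called for 14 of the 35, against 15.6% of all genes, and at least a 2-fold fall for 0 of the 35, against 17.4%. The median log2 fold change was 0.94 over the 35 genes and -0.02 over all genes. By role, all 4 genes of glucose entry, 6 of 8 of upper glycolysis, all 5 of lower glycolysis, 5 of 6 of lactate and pyruvate handling, all 6 of the HIF group and 2 of 3 of the oxidative pentose phosphate branch rose. All 3 genes of the non-oxidative branch fell.

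The scaling of the libraries bears on these directions. TMM factors were 1.18 to 1.19 in untreated controls, 0.810 to 0.814 in LPS-treated controls and 1.04 in SRF-KO. When library totals replaced the TMM factors, the all-gene median log2 fold change moved to -0.57 for LPS and to 0.37 for SRF-KO, and the split over all genes became 21% higher and 67.8% lower for LPS. Of the 35 genes, 21 were then higher and 10 lower with LPS, with a median of 0.39. By role, 4 of 4 genes of glucose entry, 4 of 8 of upper glycolysis, 4 of 5 of lower glycolysis, 3 of 6 of lactate and pyruvate handling, 6 of 6 of the HIF group and 0 of 3 of each pentose phosphate branch were then higher with LPS. Relative to the all-gene median of the TMM fit, 28 of the 35 lay above it and 7 below. That median, -0.02, is so close to 0 that this split repeats the TMM calls and is no further check.

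In the SRF-KO macrophages given LPS, the same genes moved in both directions against LPS-treated controls. Of the 35, 19 were higher, 10 lower and 6 not called (Pfkl, Pfkfb4, Pgk1, Pkm, Pdk1 and G6pdx), against 39.1% of all genes higher, 37.9% lower and 77% called in all. The count of 29 called is near that background share. The LPS-treated groups were separate for 28 of the 35, with 20 higher and 8 lower, against 78% of all genes (39.7% and 38.3%). A 2-fold rise was called for 3 (Egln3, Vegfa and Taldo1) and a 2-fold fall for 3 (Hk3, Pfkfb3 and Ldhb), against 13.9% and 11.2% of all genes, so the count of large changes was near the background as well. The median log2 difference was 0.18 over the 35 and 0.01 over all genes. With library totals, 29 of the 35 were higher, among them the 6 not called with TMM, and 5 were lower, while over all genes 61.1% were higher and 21.1% lower. Both comparisons use the 3 LPS-treated control libraries, so their values are given side by side and are not independent.

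**Figure D1:**
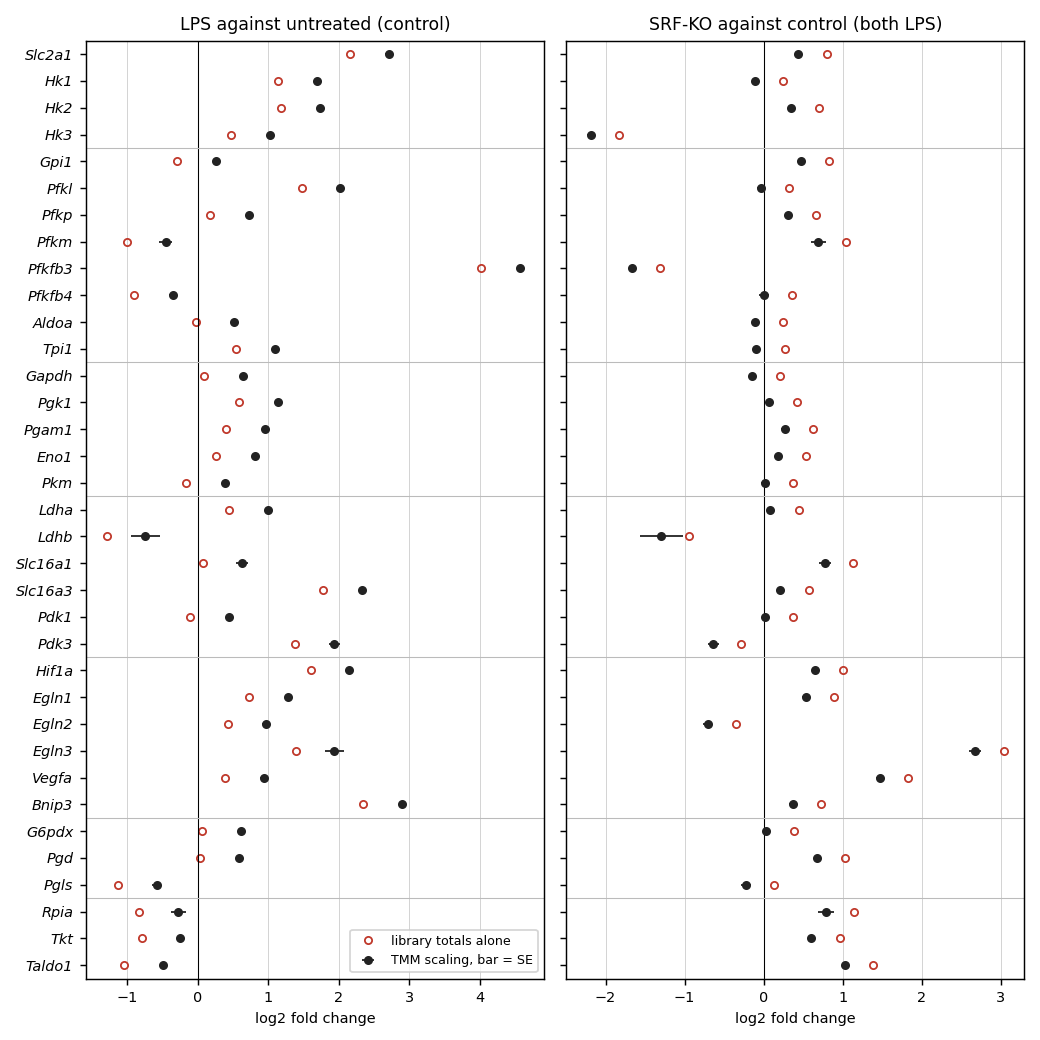
Log2 fold changes of the 35 genes for LPS against untreated controls and for SRF-KO against control under LPS, ordered by role; filled points are TMM-scaled values with bars for the standard error from the edgeR fit, and open circles use library totals. With TMM scaling 28 genes lie above 0 for LPS, led by Pfkfb3 at 4.57, and for SRF-KO they spread from -2.19 for Hk3 to 2.68 for Egln3.

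The first step was led by the glucose transporter. Slc2a1 (GLUT1, chromosome 4, 119108711-119137983, GRCm38) stood at 75.0, 81.7 and 83.4 CPM in untreated controls, at 525, 506 and 533 CPM in LPS-treated controls, and at 721, 690.0 and 714 CPM in SRF-KO. The 3 groups were separate, with SRF-KO the highest. The log2 fold change was 2.70 (SE 0.0438) with LPS, a 6.52-fold rise, and 0.44 (SE 0.0386) for SRF-KO over control under LPS.

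Hexokinases trap glucose in the cell as glucose 6-phosphate, and the macrophages held transcripts of 3 of them. Hk2 (chromosome 6, 82725025-82774454), the inducible form that binds mitochondria, read 97.1, 89.0 and 95.02 CPM untreated, 314, 312 and 309.7 CPM with LPS, and 391, 393 and 402 CPM in SRF-KO. It thus followed the order of Slc2a1, with log2 changes of 1.74 and 0.34. Hk1 (chromosome 10, 62268855-62379908), the form with the widest tissue range, read 123, 124 and 125 CPM untreated, 412, 386 and 404 CPM with LPS, and 387, 357 and 371 CPM in SRF-KO. Its 2 LPS-treated groups overlapped by 1 library. Its log2 difference of -0.11 for SRF-KO was called, but the adjusted p was 0.0653 without LPS-treated control library 1 and 0.0663 without SRF-KO library 2, and the difference turned to 0.25 with library totals.

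Hk3 (chromosome 13, 55005985-55021385), a hexokinase expressed mainly in myeloid cells, had by far the largest difference of the 3 in the knockout. It read 220.3, 212 and 237 CPM untreated, 469, 428 and 468 CPM with LPS, and 100.2, 92.9 and 107 CPM in SRF-KO. The SRF-KO libraries were below both control groups. The log2 fold change was 1.03 (SE 0.0454) with LPS and -2.19 (SE 0.0481) for SRF-KO, a 4.56-fold lower level (adjusted p = 6.13e-32).

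The make-up of the hexokinase transcripts was compared as shares of their summed CPM per kilobase of exon. Hk3 made up 66.7% ± 0.951 (SD, n = 3) in untreated controls, 55.5% ± 0.945 (SD, n = 3) with LPS and 19.8% ± 0.909 (SD, n = 3) in SRF-KO. Hk2 went from 17.3% ± 0.625 to 23.5% ± 0.861 and 48.4% ± 1.05 (SD, n = 3 each), and Hk1 from 16.0% ± 0.646 to 21.1% ± 0.139 and 31.8% ± 0.938 (SD, n = 3 each). Hk3 was thus the most abundant hexokinase transcript in both control groups and the least abundant in SRF-KO. The exact two-sided permutation p was 0.1, the smallest that 3 against 3 libraries allow, for each of the 39 isozyme comparisons made (5 families, 13 isozymes, 3 comparisons), and 0.1 after Benjamini-Hochberg adjustment.

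**Figure D2:**
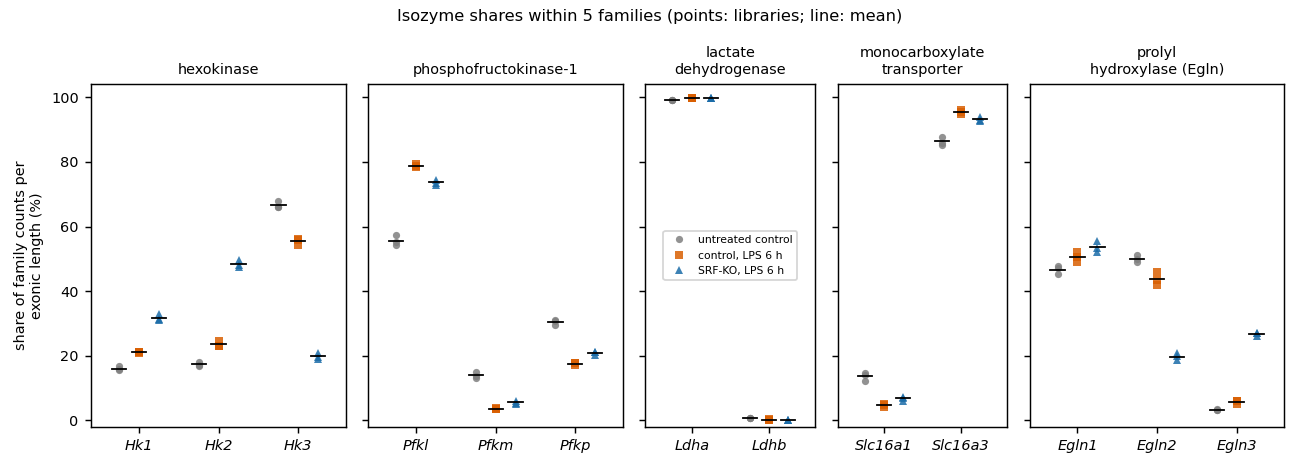
Share of each isozyme, in percent of the family's summed CPM per kilobase of exon, in each of the 9 libraries for hexokinases, phosphofructokinases, lactate dehydrogenases, lactate transporters and HIF prolyl hydroxylases. Points are libraries and lines are group means; Hk3 falls from 66.7% to 19.8% and Egln3 goes from 3.31% to 26.6% between untreated controls and SRF-KO with LPS.

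Upper glycolysis held the largest rise of the 35 with LPS. Pfkfb3 (chromosome 2, 11471433-11554077) makes fructose 2,6-bisphosphate, the strongest known activator of phosphofructokinase. It read 63.5, 60.1 and 64.9 CPM untreated, 1506, 1465 and 1498 CPM with LPS, and 449, 477 and 481 CPM in SRF-KO. The SRF-KO libraries lay between the 2 control groups and overlapped neither. The log2 fold change was 4.57 (SE 0.0460) with LPS, a 23.7-fold rise, and -1.67 (SE 0.0388) for SRF-KO, a 3.17-fold lower level (adjusted p = 3.82e-31). Pfkfb4, a related enzyme, averaged 58.2 ± 1.47, 45.7 ± 5.18 and 46.1 ± 1.89 CPM (SD, n = 3 each), falling by 0.35 on the log2 scale with LPS. For SRF-KO against control its value was 0.01 (adjusted p = 0.896).

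Phosphofructokinase itself commits the sugar to glycolysis and is encoded by Pfkl, Pfkp and Pfkm, named for liver, platelet and muscle. Pfkl averaged 115 ± 7.03 CPM untreated, 468 ± 24.0 with LPS and 455 ± 17.0 in SRF-KO (SD, n = 3 each), a log2 rise of 2.02 with LPS and a value of -0.04 for SRF-KO (adjusted p = 0.412). Pfkp averaged 127 ± 1.94, 209 ± 5.41 and 258 ± 2.49 CPM (SD, n = 3 each), with log2 rises of 0.72 with LPS and 0.30 for SRF-KO. Pfkm fell by 0.45 with LPS, from 14.4 ± 0.887 to 10.6 ± 0.201 CPM, and was 0.69 higher in SRF-KO at 17.2 ± 1.63 CPM (SD, n = 3 each). Per kilobase of exon, Pfkl made up 55.6% ± 1.52 of the 3 transcripts untreated, 78.9% ± 0.474 with LPS and 73.7% ± 0.700 in SRF-KO (SD, n = 3 each). On that scale Pfkl held the largest share in all 9 libraries. Without division by exon length, Pfkp led in untreated controls, with 49.4% against 44.9% for Pfkl.

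The remaining 3 genes of upper glycolysis act on either side of phosphofructokinase. Gpi1, which converts glucose 6-phosphate to fructose 6-phosphate, averaged 602 ± 29.2, 723 ± 16.4 and 1004 ± 43.4 CPM (SD, n = 3 each). Its log2 rise was 0.26 with LPS, which turned to -0.29 with library totals, and 0.47 for SRF-KO. Aldoa, the main aldolase, averaged 1668 ± 92.1, 2393 ± 40.4 and 2221 ± 87.8 CPM (SD, n = 3 each), 0.52 higher with LPS (-0.03 with library totals) and 0.11 lower in SRF-KO on the log2 scale (log2 value -0.11, or 0.25 with library totals). The SRF-KO call of Aldoa was lost without LPS-treated control library 1 (adjusted p = 0.0684) and without SRF-KO library 2 (adjusted p = 0.105). Tpi1, which interconverts the triose phosphates, rose from 574 ± 7.81 to 1229 ± 40.8 CPM with LPS, a log2 change of 1.10, and stood at 1154 ± 23.1 CPM in SRF-KO (SD, n = 3 each). Its log2 value of -0.09 for SRF-KO was called in the fit to all libraries. It was not called without LPS-treated control library 1 or 3 (adjusted p = 0.156 and 0.0586) or SRF-KO library 2 (adjusted p = 0.0876), nor without the filter on low counts (adjusted p = 0.0604), and it turned to 0.27 with library totals.

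All 5 genes of lower glycolysis, the stage that yields ATP, rose with LPS, beside 40.8% of all genes. Pgk1, which makes the first ATP of this stage, changed most, from 308 ± 6.15 to 680.1 ± 10.6 CPM (SD, n = 3 each; log2 1.14). Pgam1 rose by 0.96, Eno1 by 0.81, Gapdh by 0.65 and Pkm, the pyruvate kinase gene, by 0.38 on the log2 scale. The Pkm value turned to -0.17 with library totals. Pgam1, at 332 ± 13.1 CPM with LPS and 399 ± 19.3 CPM in SRF-KO, and Eno1, at 1581 ± 59.4 and 1797 ± 90.6 CPM (SD, n = 3 each), were higher in SRF-KO by 0.26 and 0.18. Gapdh went from 2585 ± 88.8 to 2338 ± 79.0 CPM (SD, n = 3 each), a log2 value of -0.15 that turned to 0.21 with library totals. Pgk1 (0.07, adjusted p = 0.0932) and Pkm (0.01, adjusted p = 0.771) were not called for SRF-KO. Of their 50-base windows, 53.9% for Pgk1, 36.2% for Pgam1, 26% for Eno1, 25.8% for Pkm and 25.1% for Gapdh also occur in transcripts of other genes. For Gapdh these are 223 genes, 213 of them pseudogenes, so how the authors' counting split such reads makes these levels less certain.

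Levels per kilobase use the union of all exons and depend on which isoforms are expressed, so they compare genes only roughly. On that scale, Pkm (580.0 ± 18.0 CPM per kilobase, SD, n = 3) and Aldoa (573 ± 31.7) stood highest in untreated controls and did not differ beyond their spread. Gapdh (399 ± 12.1) and Ldha (310 ± 3.64) came next. Without division by length, Gapdh (1650 ± 49.9 CPM) and Aldoa (1668 ± 92.1 CPM, SD, n = 3 each) did not differ beyond their spread in untreated controls. With LPS, Aldoa led at 822 ± 13.9 and Pkm followed at 756 ± 18.3, while Gapdh (625 ± 21.5) and Ldha (619.8 ± 9.02 CPM per kilobase, SD, n = 3 each) lay within each other's spread. That lead of Aldoa was not seen without division by length. Pkm then led with LPS at 3781 ± 91.3 CPM, before Gapdh (2585 ± 88.8) and Aldoa (2393 ± 40.4). Pkm also led in untreated controls, at 2900 ± 90.2 CPM (SD, n = 3 each). At the other end in untreated controls, Egln3 (1.01 ± 0.102), Rpia (1.72 ± 0.124) and Ldhb (2.28 ± 0.0985 CPM per kilobase, SD, n = 3 each) were the lowest of the 35.

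**Figure D3:**
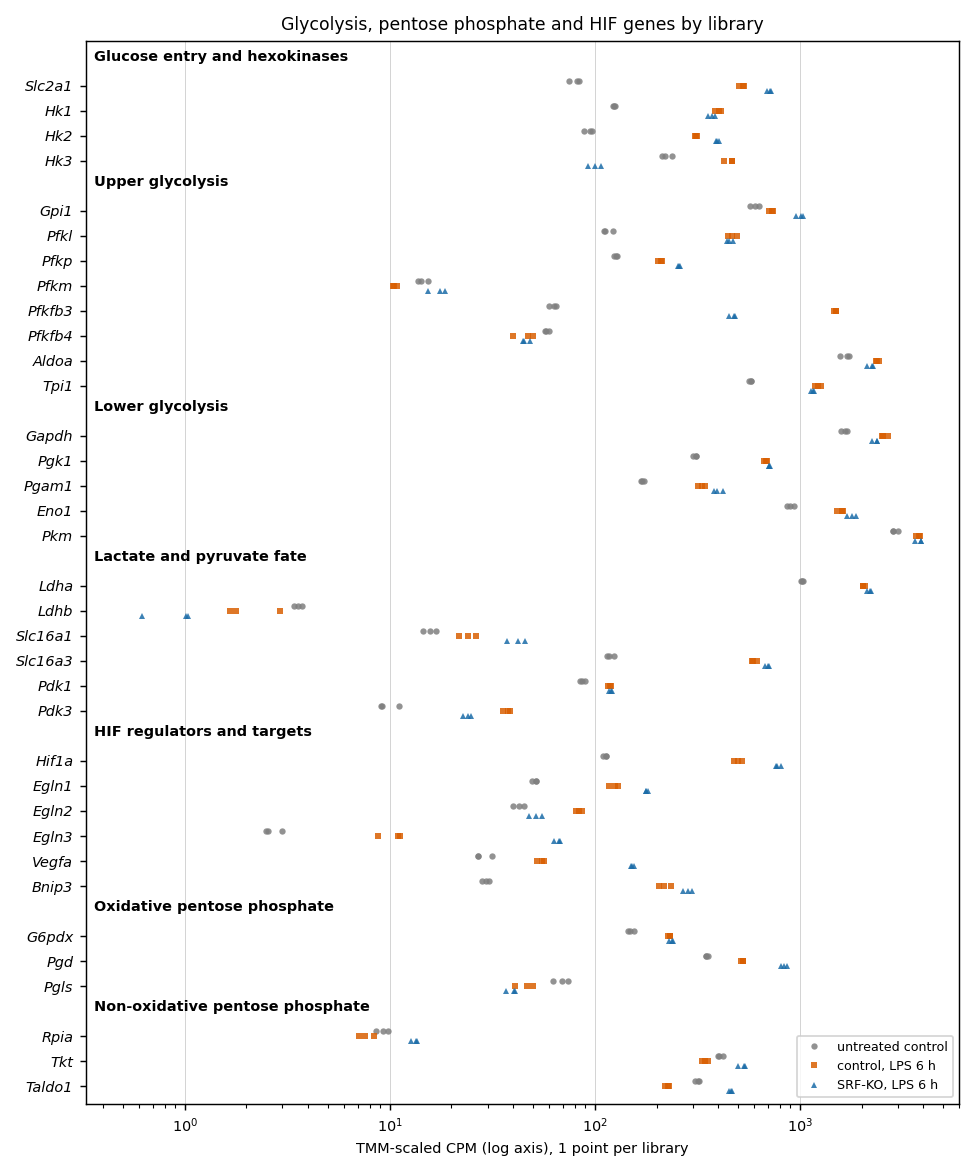
Levels of the 35 genes in each of the 9 libraries, in CPM on a log axis, with genes grouped by role and libraries coloured by group. The 3 libraries of a group sit close together for nearly all genes; Pfkfb3 separates the groups widely, with 60.1 to 64.9 CPM untreated, 1465 to 1506 CPM with LPS and 449 to 481 CPM in SRF-KO.

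Pyruvate at the end of glycolysis is either reduced to lactate or oxidised in mitochondria. Ldha (chromosome 7, 46841475-46855627), the lactate dehydrogenase subunit favouring lactate, read 1014, 1025 and 1038 CPM untreated, 2086, 2037 and 2032 CPM with LPS and 2219, 2122 and 2195 CPM in SRF-KO. It rose 2.00-fold with LPS (log2 1.00, SE 0.0375). The SRF-KO libraries were just above the LPS-treated controls, and that log2 difference of 0.09 was not called without LPS-treated control library 2 or 3 (adjusted p = 0.0732 and 0.0985) or SRF-KO library 1 or 3 (adjusted p = 0.112 and 0.0744). Ldhb (chromosome 6, 142490249-142507957), the subunit favouring pyruvate, was scarce, with 71, 78 and 67 counts untreated, 22, 24 and 45 with LPS, and 23, 16 and 18 in SRF-KO. In CPM its means were 3.58 ± 0.155, 2.11 ± 0.692 and 0.892 ± 0.236 (SD, n = 3 each), log2 changes of -0.74 (SE 0.206) with LPS and -1.30 (SE 0.269) for SRF-KO. Its share of the 2 subunits' transcripts, per kilobase of exon, was 0.730%, 0.217% and 0.0859% as group means.

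Lactate leaves cells through monocarboxylate transporters. Slc16a3 (MCT4, chromosome 11, 120948480-120960868), the exporter of glycolytic cells, read 115, 118 and 124 CPM untreated, 615, 587 and 590.0 CPM with LPS, and 705, 674 and 698 CPM in SRF-KO. The groups were again separate and in the order seen for Slc2a1, with log2 changes of 2.33 (SE 0.0413) with LPS, a 5.03-fold rise, and 0.21 (SE 0.0376) for SRF-KO. Slc16a1 (MCT1), which carries lactate in both directions, averaged 15.6 ± 1.15, 24.1 ± 2.36 and 41.7 ± 4.14 CPM (SD, n = 3 each), with log2 rises of 0.63 and 0.78. The first was not called with library totals (0.08, adjusted p = 0.382). Slc16a3 held 86.3% of the 2 transporters' transcripts per kilobase untreated, 95.4% with LPS and 93.2% in SRF-KO.

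Pyruvate dehydrogenase kinases shut pyruvate out of the mitochondrial citrate cycle. Pdk3 (X chromosome, 93764607-93832201) read 9.02, 11.1 and 9.13 CPM untreated, 35.6, 38.8 and 37.6 CPM with LPS, and 24.1, 24.997 and 22.7 CPM in SRF-KO. SRF-KO lay between the control groups, with log2 changes of 1.93 (SE 0.0800) with LPS and -0.64 (SE 0.0687) for SRF-KO. Pdk1, a classic HIF-1 target, averaged 87.0 ± 2.89, 118 ± 1.95 and 119.7 ± 1.72 CPM (SD, n = 3 each). Its log2 rise was 0.44 with LPS (-0.11 with library totals), and its SRF-KO value was 0.02 (adjusted p = 0.707).

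All 6 genes of the HIF group rose with LPS, and 5 of them were higher again in SRF-KO, the exception being Egln2. Beside these counts, 40.8% of all genes were higher with LPS and 39.1% in SRF-KO (21% and 61.1% with library totals). Hif1a (chromosome 12, 73901375-73947530) read 114, 113 and 110.2 CPM untreated, 501, 521 and 477 CPM with LPS, and 771, 807 and 766 CPM in SRF-KO. The 3 groups were well apart. The log2 fold change was 2.15 (SE 0.0421) with LPS, a 4.44-fold rise, and 0.65 (SE 0.0384) for SRF-KO, a 1.56-fold higher level.

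The 3 prolyl hydroxylases that act on the alpha subunit parted in the knockout. Egln3 (PHD3, chromosome 12, 54178981-54203860), itself a HIF target, read 2.56, 2.49 and 2.99 CPM untreated, 11.2, 10.9 and 8.79 CPM with LPS, and 66.6, 63.2 and 67.9 CPM in SRF-KO. It had the largest SRF-KO difference of the 35 genes, with a log2 value of 2.68 (SE 0.0757, adjusted p = 2.17e-28), a 6.42-fold higher level, after 1.94 (SE 0.131) with LPS in controls. Egln1 (PHD2), the main oxygen sensor, averaged 51.0 ± 1.19, 124 ± 5.87 and 179 ± 2.38 CPM (SD, n = 3 each), with log2 rises of 1.28 and 0.53. Egln2 (PHD1, chromosome 7, 27158658-27166802) read 39.8, 42.7 and 45.3 CPM untreated, 83.5, 81.2 and 86.3 CPM with LPS, and 51.6, 47.6 and 55.1 CPM in SRF-KO. Its log2 changes were 0.98 (SE 0.0563) and -0.71 (SE 0.0547), and its SRF-KO libraries lay between the control groups. Of the 3 transcripts per kilobase of exon, Egln3 held 3.31% ± 0.246 untreated, 5.67% ± 0.635 with LPS and 26.6% ± 0.551 in SRF-KO, while Egln2 held 50.02%, 43.8% and 19.8% as group means (SD, n = 3 each).

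The other HIF targets of the list were Vegfa and Bnip3. Vegfa (chromosome 17, 46016993-46032369), which encodes the main angiogenic growth factor, read 27.0, 27.1 and 31.4 CPM untreated, 55.4, 56.7 and 52.1 CPM with LPS and 155, 152 and 150.2 CPM in SRF-KO. The rise was 0.94 (SE 0.0596) with LPS and 1.48 (SE 0.0504, adjusted p = 1.10e-25) for SRF-KO on the log2 scale, the latter a 2.79-fold higher level. Bnip3 (chromosome 7, 138890836-138909519), a mitochondrial protein that promotes mitophagy, read 29.4, 30.5 and 28.3 CPM untreated, 217, 235 and 206 CPM with LPS, and 284, 298 and 268 CPM in SRF-KO. The log2 changes were 2.90 (SE 0.0535) and 0.37 (SE 0.0435), and no group overlapped another. Of the exonic bases of Bnip3, 22.3% overlap the antisense gene Gm45507, and 47.2% of its 50-base windows occur in other genes' transcripts. The strand setting of the authors' counting is not given in the sources used here.

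**Figure D4:**
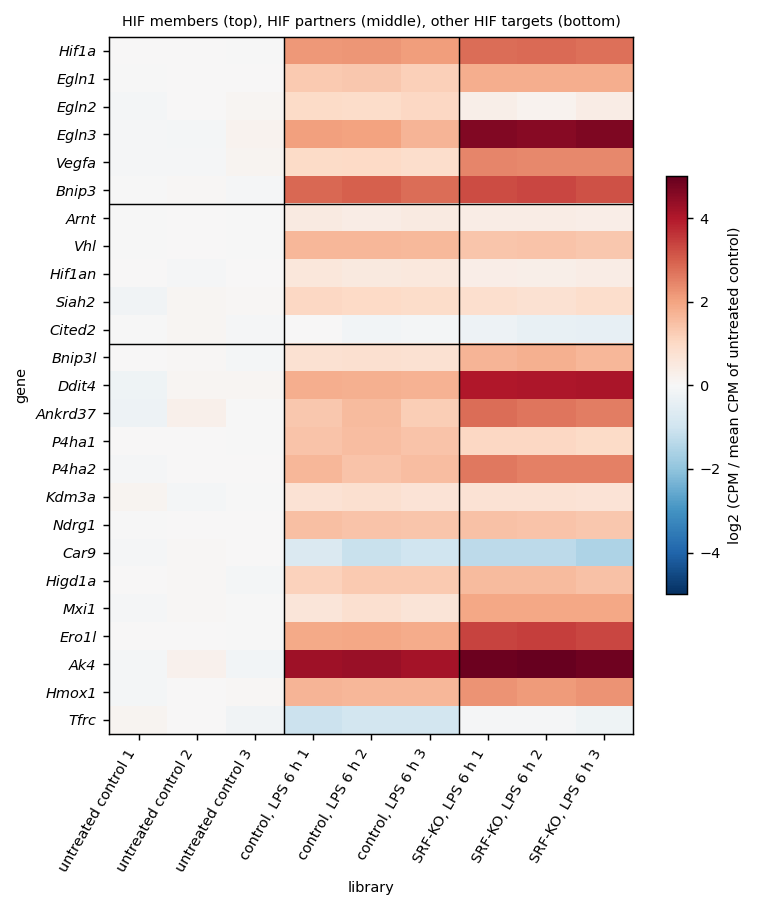
Colour map of the log2 ratio of CPM to the mean CPM of the untreated controls for 25 HIF genes (those of the 35 at the top, HIF partners in the middle, other HIF targets at the bottom) with a group mean of at least 5 CPM, one column per library. Values run from -1.53 to 4.97; Ak4, Egln3 and Ddit4 reach the highest values in the SRF-KO columns, and Egln2 falls back there towards the untreated level.

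HIF-1 binds a short hypoxia response element whose core reads ACGTG or GCGTG. Both motifs were searched on both strands of RefSeq promoter windows (GRCm38.p6), from 250 bases before to 50 after a transcript start. All 35 genes matched, with 50 windows. ACGTG occurred in 50% of these windows and in 19.6% of all 32851 windows of the same length, GCGTG in 60% and 32.4%, and either one in 82% and 43.8%. Either motif was found in any window for 33 of the 35 genes, a count for which no share over all genes was computed. Some genes have several windows, and some of these overlap, so the 50 windows are not independent. The windows of these genes had a median GC content of 61.2%, against 52.7% for all windows, and no adjustment for GC was made. The E-box CACGTG, which contains ACGTG, occurred in 14% and 7.15%. The CArG box bound by SRF, with CC and GG flanking A or T bases, occurred in 1 window of the 50, at Ldha, and in 1.63% of all windows. A match is a description of the sequence and not a measured binding site.

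Stretches just before the start are shown as examples, picked after the values and matches were seen, so that the motif content can be read directly. They come from 6 genes that rose with LPS and from Tkt and Taldo1 of the non-oxidative branch, which fell. The Egln3 stretch is longer than the others because its match lies at position -229 from the start. Capitals mark ACGTG or GCGTG on either strand (CACGT and CACGC on the opposite one), and each sequence is read 5′ to 3′ on the gene's strand. Slc2a1 lies at chr4:119108595-119108744 (plus strand), Slc16a3 at chr11:120948917-120949066 (plus), Pgk1 at chrX:106186940-106187099 (plus), Bnip3 at chr7:138909507-138909656 (minus), Ldha at chr7:46845644-46845803 (plus), Egln3 at chr12:54203875-54204124 (minus), Tkt at chr14:30548981-30549130 (plus) and Taldo1 at chr7:141392010-141392159 (plus).
Slc2a1: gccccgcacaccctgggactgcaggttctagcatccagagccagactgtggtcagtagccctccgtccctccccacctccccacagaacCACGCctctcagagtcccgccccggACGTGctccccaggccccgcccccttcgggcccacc
Slc16a3: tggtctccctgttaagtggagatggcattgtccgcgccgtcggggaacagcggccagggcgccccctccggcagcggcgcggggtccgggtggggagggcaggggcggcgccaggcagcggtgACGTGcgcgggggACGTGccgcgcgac
Pgk1: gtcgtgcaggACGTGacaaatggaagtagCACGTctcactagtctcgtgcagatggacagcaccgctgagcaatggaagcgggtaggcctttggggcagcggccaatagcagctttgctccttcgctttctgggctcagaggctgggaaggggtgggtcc
Bnip3: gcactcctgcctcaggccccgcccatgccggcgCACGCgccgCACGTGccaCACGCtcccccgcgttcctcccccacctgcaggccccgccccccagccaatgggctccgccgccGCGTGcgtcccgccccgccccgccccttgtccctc
Ldha: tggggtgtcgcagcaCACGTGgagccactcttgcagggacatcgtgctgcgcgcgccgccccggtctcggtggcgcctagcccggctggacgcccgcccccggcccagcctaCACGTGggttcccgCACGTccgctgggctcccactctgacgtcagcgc
Egln3: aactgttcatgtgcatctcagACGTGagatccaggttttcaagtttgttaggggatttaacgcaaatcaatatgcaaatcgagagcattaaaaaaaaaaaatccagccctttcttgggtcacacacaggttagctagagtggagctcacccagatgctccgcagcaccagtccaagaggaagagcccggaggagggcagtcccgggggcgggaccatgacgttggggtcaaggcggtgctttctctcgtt
Tkt: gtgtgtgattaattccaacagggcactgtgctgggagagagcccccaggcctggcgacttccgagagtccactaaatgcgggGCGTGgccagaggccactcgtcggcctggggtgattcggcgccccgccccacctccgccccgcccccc
Taldo1: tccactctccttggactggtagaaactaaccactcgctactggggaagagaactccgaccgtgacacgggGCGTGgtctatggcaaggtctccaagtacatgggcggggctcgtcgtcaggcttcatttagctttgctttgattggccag
The Ldha stretch held 5 matches of ACGTG counted over both strands, and Slc16a3 and Pgk1 held 2 each. Egln3 held 1, Slc2a1 held 1 together with 1 of GCGTG, and Bnip3 held 2 together with 3 of GCGTG. The stretches of Tkt and Taldo1 held 1 GCGTG each. These examples do not stand for a rule across the 35 genes. Over whole windows, Pfkl, Pfkp and Eno1, which rose with LPS, had GCGTG but no ACGTG, Tpi1 and Gpi1 had neither, and Pfkm, which fell, had both.

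The oxidative branch of the pentose phosphate pathway starts with G6pdx, continues with Pgls and ends with Pgd. Pgd (chromosome 4, 149149991-149166771), which releases NADPH and ribulose 5-phosphate, read 349, 349 and 356 CPM untreated, 518, 529 and 529.7 CPM with LPS and 834, 814 and 866 CPM in SRF-KO. The log2 changes were 0.58 (SE 0.0376) with LPS and 0.67 (SE 0.0369) for SRF-KO, and the 3 groups were separate. With library totals the LPS value of Pgd was 0.03 (adjusted p = 0.401). G6pdx, the rate-limiting NADPH-forming enzyme, averaged 150.1 ± 5.29, 231 ± 2.76 and 236 ± 5.35 CPM (SD, n = 3 each), 0.62 higher with LPS and 0.03 for SRF-KO (adjusted p = 0.444). With library totals its LPS value was 0.07 (adjusted p = 0.0870), so that none of the 3 oxidative-branch genes was called higher on that scaling. Of the exonic bases of G6pdx, 13.6% overlap Ikbkg, a gene on the opposite strand. Of its 50-base windows, 16.9% occur in other genes' transcripts, as do 18.9% of those of Pgls, 21% of those of Ldhb and 15.8% of those of Gpi1. Of the exonic bases of Pgls, 20.6% overlap Fam129c on the same strand. Pgls fell by 0.58 with LPS, from 68.5 ± 5.7 to 45.9 ± 4.67 CPM. It stood at 39.4 ± 2.27 CPM in SRF-KO (SD, n = 3 each), where the groups overlapped, with a log2 value of -0.22 that turned to 0.13 with library totals.

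The 3 genes of the non-oxidative branch all fell with LPS in controls, and all 3 were higher in SRF-KO than in both control groups. Of all genes, 40.8% were lower with LPS (67.8% with library totals). In SRF-KO, 39.1% were higher than in LPS-treated controls (61.1% with library totals) and 39.4% than in untreated controls (29.8%). Taldo1 (transaldolase, chromosome 7, 141392199-141402968) read 307, 319 and 322 CPM untreated, 229.5, 219 and 227 CPM with LPS, and 460.1, 453 and 466 CPM in SRF-KO. Its log2 changes were -0.49 (SE 0.0380, adjusted p = 1.44e-14) with LPS and 1.03 (SE 0.0378, adjusted p = 1.24e-24) for SRF-KO. Tkt (transketolase, chromosome 14, 30548359-30574720) read 398, 405 and 421 CPM untreated, 345, 334 and 356 CPM with LPS, and 541, 500.2 and 534 CPM in SRF-KO. These are log2 changes of -0.24 (SE 0.0399) and 0.61, with no overlap between groups. Rpia, the isomerase that yields ribose 5-phosphate for nucleotides, read 9.31, 9.86 and 8.54 CPM untreated, 8.38, 7.6 and 7.11 CPM with LPS, and 13.7, 13.4 and 12.6 CPM in SRF-KO. Its fall with LPS, -0.27 on the log2 scale (adjusted p = 0.0217), was not called without untreated library 2 (adjusted p = 0.0917) or LPS-treated control library 2 or 3 (adjusted p = 0.0531 and 0.110), nor by DESeq2 (adjusted p = 0.0657). Its SRF-KO value was 0.79 (SE 0.102).

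SRF-KO macrophages with LPS were also set against untreated controls, a comparison that differs in genotype and treatment at once. Of the 35 genes, 31 were higher and 4 lower (Hk3, Pfkfb4, Ldhb and Pgls), against 39.4% and 40.1% of all genes and 79.5% called in all. The groups were separate for 34 of the 35, with 30 higher and 4 lower and Pfkm the exception, against 79.5% of all genes (39.6% and 39.9%). With library totals, 29 of the 35 were higher and 4 lower, against 29.8% and 52.3% of all genes. At least 2-fold higher were 19 and at least 2-fold lower 2, against 13.4% and 13%. The largest log2 values were 4.62 (SE 0.0899) for Egln3, 3.27 for Bnip3, 3.15 for Slc2a1, 2.90 for Pfkfb3 and 2.80 for Hif1a. Hk3 stood at -1.16 and Ldhb at -2.03. The call of Pfkm (log2 0.24) was lost without SRF-KO library 3 (adjusted p = 0.0541), and with library totals (0.05, adjusted p = 0.603). That of Egln2 (0.27) was lost with library totals (adjusted p = 0.220).

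Other genes of these pathways were taken as a list of 71, of which 60 passed the filter. With LPS, 33 rose, 21 fell and 6 were not called; for SRF-KO, 27 were higher, 15 lower and 18 not called. Over all genes, LPS gave 40.8% higher and 40.8% lower, and SRF-KO gave 39.1% and 37.9%. With library totals the list split into 22 higher and 33 lower for LPS and into 44 and 6 for SRF-KO. On that scaling, 21% of all genes were higher and 67.8% lower for LPS, and 61.1% and 21.1% for SRF-KO. Named here are up to 4 genes per direction with the largest changes. The LPS rises were led by Ak4, a mitochondrial adenylate kinase (log2 4.23), Slc2a6, a hexose transporter (4.22), Gpd2 of the glycerophosphate shuttle (3.28) and Gys1, glycogen synthase (2.59). The LPS falls were led by the transporters Slc2a3 (GLUT3, -3.22), Slc16a7 (MCT2, -2.17) and Slc2a8 (GLUT8, -1.75) and by Pdp1 (-2.09), the phosphatase that reactivates pyruvate dehydrogenase. While Slc2a1 rose, Slc2a3 went from a mean of 19.6 CPM to 2.09 CPM with LPS and stood at 1.92 CPM in SRF-KO.

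For SRF-KO against control, the largest rises of that list were Ddit4 (log2 2.26), an inhibitor of the growth kinase mTORC1, Aldoc (2.04), a second aldolase, Ero1l (1.52), an oxidase of the endoplasmic reticulum, and Ankrd37 (1.29). Ddit4 went from a mean of 7.83 to 37.4 CPM, Aldoc from 19.5 to 79.9 CPM and Ero1l from 137 to 394 CPM. Of the 15 other known HIF targets tested, 13 rose and 2 fell with LPS, and 10 were higher, 2 lower and 3 not called in SRF-KO (12 and 2, and 13 and 1, with library totals). Over all genes, 40.8% were higher and 40.8% lower with LPS, and 39.1% higher and 37.9% lower in SRF-KO. With library totals these shares were 21% and 67.8% with LPS, and 61.1% and 21.1% in SRF-KO. The falls were led by Eno2 (-2.06), a second enolase, Slc2a6 (-1.68) and Gpd2 (-1.15). Slc2a6 averaged 30.2 CPM untreated, 559 CPM with LPS and 174 CPM in SRF-KO, and Gpd2 19.1, 186 and 83.8 CPM. Both thus lay between the control groups in SRF-KO, as Pfkfb3 and Pdk3 did. Against untreated controls, SRF-KO with LPS was highest for Ak4 (4.91), Ddit4 (4.04), Ero1l (3.41) and Gys1 (3.24) and lowest for Slc2a3 (-3.33), Slc16a7 (-3.01), Pdp1 (-1.98) and Slc2a8 (-1.83).

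The 7 tested partners and regulators of HIF moved less uniformly, with 5 rising, 1 falling and 1 not called with LPS, and 2 higher, 3 lower and 2 not called in SRF-KO. With library totals they split into 2 higher and 3 lower for LPS and 6 higher and 0 lower for SRF-KO, so their direction depends on the scaling. Of all genes, 40.8% were higher and 40.8% lower for LPS, and 39.1% and 37.9% for SRF-KO. These shares also shifted with library totals, to 21% and 67.8% for LPS and to 61.1% and 21.1% for SRF-KO. Arnt, the constant partner, went from a mean of 51.8 CPM untreated to 69.7 CPM with LPS (log2 0.43, or -0.12 with library totals) and stood at 66.3 CPM in SRF-KO (-0.07, adjusted p = 0.191, or 0.29 with library totals). Vhl, which targets the hydroxylated alpha subunit for destruction, went from 25.4 to 79.2 CPM (1.64) and stood at 66.4 CPM in SRF-KO (-0.25, or 0.10 with library totals). Arnt and Vhl were chosen for naming after their values were seen.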

How the data were processed

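The deposited files hold raw read counts per Ensembl gene, 1 file per library. Per the submitters' processing notes, the tools named are bcl2fastq 2.19, Trimmomatic, STAR 2.5.4b, featureCounts and edgeR, with genome build GRCm38; the settings used and the annotation release are not stated there. Symbols, coordinates and exon lengths came from GENCODE mouse release 21 (GRCm38), which named 22214 of 22524 identifiers. Levels per kilobase use the union of all exons, so they depend on which isoforms are expressed.

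Counts were tested with edgeR 4.0.16 (R 4.3.3, limma 3.58.1): filterByExpr left 11560 genes, TMM scaling was used, and a robust quasi-likelihood fit with group as the only term was made on all 9 libraries, with Benjamini-Hochberg adjustment over all tested genes and a threshold of 0.05. Depth was 15867737 to 17606538 counts in untreated controls, 15321839 to 19009123 in LPS-treated controls and 16987011 to 24912173 in SRF-KO, and the common biological coefficient of variation was 3.46%. Alternatives were library totals, RLE factors, DESeq2 1.42.0, no filter, fits to 2 groups, a replicate block and leaving out each library; 2 more, without X-linked members and without members with over 10% shared windows, were added after the data were seen. Shared sequence was measured as the percent of a gene's 50-base windows that also occur in transcripts of other genes. The members and lists were chosen with earlier results of these data known. All members are named; of the wider list, up to 4 genes per direction were named that had an adjusted p below 0.05, a change of at least 2-fold and a mean log2 CPM of at least 2, unless stated. On simulated counts with 200 changed genes, balanced in direction, the LPS comparison (11240 genes) recovered 73% of 1.25-fold and 96% of 2-fold changes. It called 6 unchanged genes. The SRF-KO comparison (11224 genes) recovered 70% and 100%, with 11 unchanged genes called. In the real data 81.7% and 77% of all genes were called in these comparisons, and the TMM factors differed between groups. The simulation had neither feature, so its rates cannot be carried over to the real calls.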

Additional observations from a re-analysis of the deposited data

How the results depend on the processing

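Over the settings tried, the number of the 35 genes called stayed within 1.5 times that reported, and leaving out 1 library gave 34 to 35 for LPS, 26 to 28 for SRF-KO against control and 34 to 35 for SRF-KO with LPS against untreated controls. The scaling mattered most. With library totals, 2428 genes were higher and 7835 lower with LPS, and 7059 higher and 2434 lower in SRF-KO against control. The 35 then split into 29 higher and 5 lower for SRF-KO (19 and 10 with TMM), and the wider list into 44 higher and 6 lower (27 and 15 with TMM), with 33 lower for LPS (21 with TMM). Among the genes named, directions that reversed with library totals were, for LPS, Gpi1 (-0.29), Aldoa (-0.028), Pkm (-0.17), Pdk1 (-0.11), Srf (-0.17), Arnt (-0.12), Gbe1 (-0.24), Ugp2 (-0.498) and H6pd (-0.29), and, for SRF-KO, Hk1 (0.25), Pfkl (0.32), Aldoa (0.25), Tpi1 (0.27), Gapdh (0.21), Pgls (0.13), Arnt (0.29) and Vhl (0.10). Values near 0 that were not called changed sign for SRF-KO: Pfkfb4 ranged from -0.081 (without LPS-treated control library 2) to 0.086 (without LPS-treated control library 3), with -0.020 without SRF-KO library 3, and Pkm from -0.0067 (without LPS-treated control library 2) to 0.045 (without SRF-KO library 2), with -0.0047 without SRF-KO library 3. Without the 10 members with over 10% shared windows, 25, 22 and 25 members were called, and 2 in place of 4 were lower in SRF-KO with LPS against untreated controls, since fewer genes were counted. Without the 3 X-linked members, 32, 28 and 32 were called.

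Whether replicate numbers pair the libraries cannot be settled from these values. Deviations of same-numbered libraries correlated between -0.0746 and 0.0971, and those of different-numbered libraries between -0.110 and 0.111. For SRF-KO against control alone, the ranges were 0.018 to 0.0971 for same-numbered and -0.0725 to 0.00672 for different-numbered libraries. With the replicate number as a block, 35, 29 and 35 of the 35 genes and 9467, 8919 and 9231 of all genes were called, and no member's call changed.

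Isozyme shares depend on division by exon length. Without it, untreated, LPS-treated control and SRF-KO means were 28.2%, 34.3% and 42.9% for Hk1, 21.3%, 26.7% and 45.6% for Hk2, 50.6%, 39.0% and 11.5% for Hk3, 44.9%, 68.0% and 62.3% for Pfkl, 5.64%, 1.54% and 2.35% for Pfkm and 49.4%, 30.4% and 35.3% for Pfkp. They were 99.7%, 99.9% and 99.96% for Ldha, 0.348%, 0.103% and 0.0408% for Ldhb, 11.6%, 3.89% and 5.69% for Slc16a1, 88.4%, 96.1% and 94.3% for Slc16a3, 53.0%, 56.9% and 60.4% for Egln1, 44.2%, 38.4% and 17.3% for Egln2 and 2.78%, 4.72% and 22.2% for Egln3. The order of the groups was the same with and without division by length for each isozyme, but the leading isozyme of untreated controls became Pfkp in place of Pfkl and Egln1 in place of Egln2. Ldhb, at 16 to 78 counts per library, and Egln3 in untreated controls are the members where depth most limits precision.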

Other observations

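All 4 genes of glycogen turnover were higher in SRF-KO than in control macrophages with LPS, and 3 of the 4 rose with LPS in controls, beside 39.1% and 40.8% of all genes. With library totals all 4 were still higher in SRF-KO, but with LPS 1 was higher (Gys1) and 2 lower (Gbe1 at -0.24 and Ugp2 at -0.498). On that scaling, 61.1% of all genes were higher and 21.1% lower in SRF-KO, and 21% and 67.8% with LPS. Pygl, the phosphorylase that breaks down glycogen, averaged 51.1, 78.1 and 138 CPM in untreated controls, LPS-treated controls and SRF-KO (log2 0.61 with LPS, not called with library totals at 0.06, and 0.82 for SRF-KO). Gbe1, the branching enzyme, averaged 17.7, 22.0 and 38.3 CPM (0.31 and 0.80), and Ugp2, which makes UDP-glucose, 88.2, 91.4 and 128 CPM, with 0.05 for LPS (adjusted p = 0.321) and 0.49 for SRF-KO. Gys1 averaged 35.4, 214 and 335 CPM (2.59 and 0.65). Pygl, Gbe1 and Ugp2 were not among the genes picked by the naming rule of the wider list and were added to them.

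Of the 6 other pentose phosphate genes tested, 2 rose, 3 fell and 1 was not called with LPS, and 2 were higher, 2 lower and 2 not called in SRF-KO. With library totals these were 1 higher and 5 lower for LPS and 3 higher and 0 lower for SRF-KO. H6pd, which forms NADPH in the endoplasmic reticulum, averaged 135, 162 and 388 CPM (log2 0.26 with LPS, which turned to -0.29 with library totals, and 1.26 for SRF-KO). Prps1, which uses ribose 5-phosphate for nucleotide synthesis, averaged 13.8, 6.74 and 13.6 CPM (-1.04 and 1.02). H6pd and Prps1 were chosen for naming after their values were seen. Of the 13 genes of pyruvate transport and oxidation tested, 5 rose, 5 fell and 3 were not called with LPS, and 3 were higher, 4 lower and 6 not called in SRF-KO. With library totals they split into 2 higher and 10 lower for LPS and 9 higher and 2 lower for SRF-KO. Beside both the pentose phosphate and the pyruvate counts, 40.8% of all genes were higher and 40.8% lower for LPS. For SRF-KO these shares were 39.1% and 37.9%. With library totals the shares were 21% and 67.8% for LPS and 61.1% and 21.1% for SRF-KO.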
